A study of Mus musculus with 12 samples.

Results

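The Nodal pathway genes described here are 7 mouse genes chosen by name, with earlier results of these data known, out of 54537 genes in the table. They are the ligand genes Nodal and Gdf3, the co-receptor gene Tdgf1, the genes of the secreted antagonists Lefty1, Lefty2 and Cer1, and the transcription factor gene Foxh1. Their RNA levels come from mouse embryonic stem cells (ES cells) and from embryoid bodies, the floating aggregates in which ES cells differentiate. The groups were a line with the genotype label WT+1343KO-a14 (the 1343KO line) at days 0, 8 and 16, and a wild type line (WT) at days 0, 8 and 16. With 2 libraries for each of these 6 groups, there were 12 libraries. Day 0 cells of both lines grew in serum with leukaemia inhibitory factor, which keeps ES cells undifferentiated, and later samples of both lines were kept in suspension without that factor. The small nucleolar RNA SNORA73 and the exit from pluripotency are named in the study's title, but no label says what 1343KO stands for, and the WT+ before it could mean the parent line or an added-back copy. Only 1 such line was used, so effects of what 1343KO marks and of the line itself cannot be told apart.

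Nodal is a secreted ligand of the TGF-beta family. With the co-receptor Tdgf1, also called Cripto, it binds activin receptors, which activate Smad2 and Smad3; these enter the nucleus with Smad4 and act at DNA with partners such as Foxh1. Lefty1 and Lefty2 are induced by the pathway and block it in turn, and Cer1 binds and blocks Nodal outside the cell. In the mouse embryo the pathway acts in the epiblast and sets up the primitive streak, and cultured ES cells also express several of its genes.

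All values are FPKM, fragments scaled to transcript length and to library depth. Differences are given as log2(FPKM + 1), a scale on which the change of a low gene looks smaller than it is. A gene passed at a Benjamini-Hochberg adjusted p under 0.05 in limma, adjusted over the 16289 genes tested. Nothing says that the 2 libraries of a group came from separate cultures, and the p-values therefore reflect the spread between these libraries alone, possibly a technical one. In bulk RNA, fewer cells of a type and less RNA per cell cannot be told apart.

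Members with near-identical copies come first, because their reads can be split between copies. The coding sequences of Lefty1 and Lefty2, both of 1107 bases, were identical at 91.9% of positions, with a longest identical run of 140 bases. Of all 75-base words of the transcripts, 11.2% of those of Lefty1 were also in Lefty2 and 7.21% of those of Lefty2 were in Lefty1, so most of each transcript was distinct. For Tdgf1, the processed pseudogene Tdgf1-ps1 on chromosome 16 was identical at 506 of 513 aligned bases, and 8.67% of the words of Tdgf1 were also in Tdgf1-ps1. The 90 bases around the end of the longest identical run are shown for Tdgf1 and its pseudogene, at bases 376 to 465 of both, because they show how little sets the copies apart. Capitals mark the 3 bases at which the pair differs there.
Tdgf1: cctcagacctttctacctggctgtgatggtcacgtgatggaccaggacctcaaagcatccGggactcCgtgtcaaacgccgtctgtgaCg
Tdgf1-ps1: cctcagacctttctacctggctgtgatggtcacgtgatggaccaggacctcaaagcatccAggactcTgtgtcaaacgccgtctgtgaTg

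The RefSeq promoter table (GRCm38.p6) matched 3 of the 7 members, Nodal, Tdgf1 and Cer1, and did not match Lefty1, Lefty2, Gdf3 and Foxh1. Since only these 3 matched, the 250 bases before the start are shown for them and not for the other members. They lie at chr10:61417722-61417971 (plus strand, Nodal), chr9:110946159-110946408 (minus strand, Tdgf1) and chr4:82885152-82885401 (minus strand, Cer1). Capitals mark matches, on either strand, to the Foxh1 motif TGTNNATT and to the Smad motif CAGAC.
Nodal: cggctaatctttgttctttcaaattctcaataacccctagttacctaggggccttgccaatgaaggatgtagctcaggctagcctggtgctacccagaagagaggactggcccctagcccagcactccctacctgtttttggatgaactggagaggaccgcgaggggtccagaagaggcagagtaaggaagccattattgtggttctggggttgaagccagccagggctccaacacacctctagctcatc
Tdgf1: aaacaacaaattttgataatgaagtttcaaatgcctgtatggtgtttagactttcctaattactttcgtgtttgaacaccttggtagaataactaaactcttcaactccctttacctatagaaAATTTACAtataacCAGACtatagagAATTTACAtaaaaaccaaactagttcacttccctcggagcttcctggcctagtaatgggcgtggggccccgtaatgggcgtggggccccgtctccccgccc
Cer1: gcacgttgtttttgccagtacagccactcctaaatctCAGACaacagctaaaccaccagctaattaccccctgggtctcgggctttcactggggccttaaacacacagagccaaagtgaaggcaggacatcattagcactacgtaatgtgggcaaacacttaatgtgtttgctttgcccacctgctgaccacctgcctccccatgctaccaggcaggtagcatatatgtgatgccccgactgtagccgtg
The Tdgf1 window held 2 matches to TGTNNATT, beginning 127 and 101 bases before the start, with 1 match to CAGAC between them. The Cer1 window held 1 match to CAGAC and none to TGTNNATT, and the Nodal window held neither. The 8 letters GTCTAGAC, in which 2 Smad sites meet, were in none of the 3. Among 32851 windows of the same length, 10.9% held TGTNNATT, 42.2% held CAGAC and 0.167% held GTCTAGAC. Matches are letters in a window and do not show binding.

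Library depth, recovered from the steps of the lowest values, was about 4883000 to 8077000 fragments. Between 12909 and 14069 genes per library were at 1 FPKM or more. Snhg3, the host gene of the SNORA73 copies in mouse, was listed at 1.57 and 0 FPKM in the day 0 libraries of the 1343KO line, against 61.1 and 47.0 in WT, and at 0 or nearly 0 in the 4 later 1343KO libraries. Genes on chromosome 8 were lower in the 1343KO line at day 0 as a whole (median log2 difference -0.42 over 214 genes averaging 20 FPKM or more, against 0.00 for the other chromosomes). Their median was also below that of the other chromosomes at day 8 (-0.16 against 0.25) and day 16 (0.06 against 0.40). None of the 7 members lies on chromosome 8. The 5 ES cell markers Pou5f1, Nanog, Sox2, Zfp42 and Esrrb summed to 1470 and 1500 FPKM in 1343KO cells at day 0 and to 1330 in both WT libraries.

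Differences between the lines were small in ES cells beside those after 8 and 16 days, when the 1343KO line had more of all 7 members. The day 0 libraries of the lines overlapped for Lefty1, Tdgf1, Cer1 and Foxh1. They did not overlap for Nodal (1.52-fold in the 1343KO line against WT), Gdf3 (1.24-fold) and Lefty2 (0.821-fold). With 2 libraries a group, a difference that did not pass does not show equal levels. At day 0, 0 of 7 members passed in limma, against 3.71% of all genes tested, and 1 of them, Nodal, had an unadjusted p under 0.05 (0.0112). At day 8 all 7 were higher in the 1343KO line, against 23.3% of all genes tested, with a median log2 difference of 3.42 for the members and 0.06 for all genes. At day 16 all 7 were again higher, against 28.5% of all genes, with medians of 3.73 and 0.07. Because the members were chosen with earlier results of these data known, these shares are a description and not an independent test. Cer1 entered the test only through its 4 later 1343KO libraries and so had to differ, while the other 6 members were above 1 FPKM in all 4 libraries of day 0. Counting both directions, 42.8% of all genes passed at day 8 and 52.6% at day 16. Of all genes that passed at day 8, 54.3% were higher in the 1343KO line, a share of 40.6% with TPM scaling; under each scaling tried all 7 members stayed higher.

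**Figure D1:**
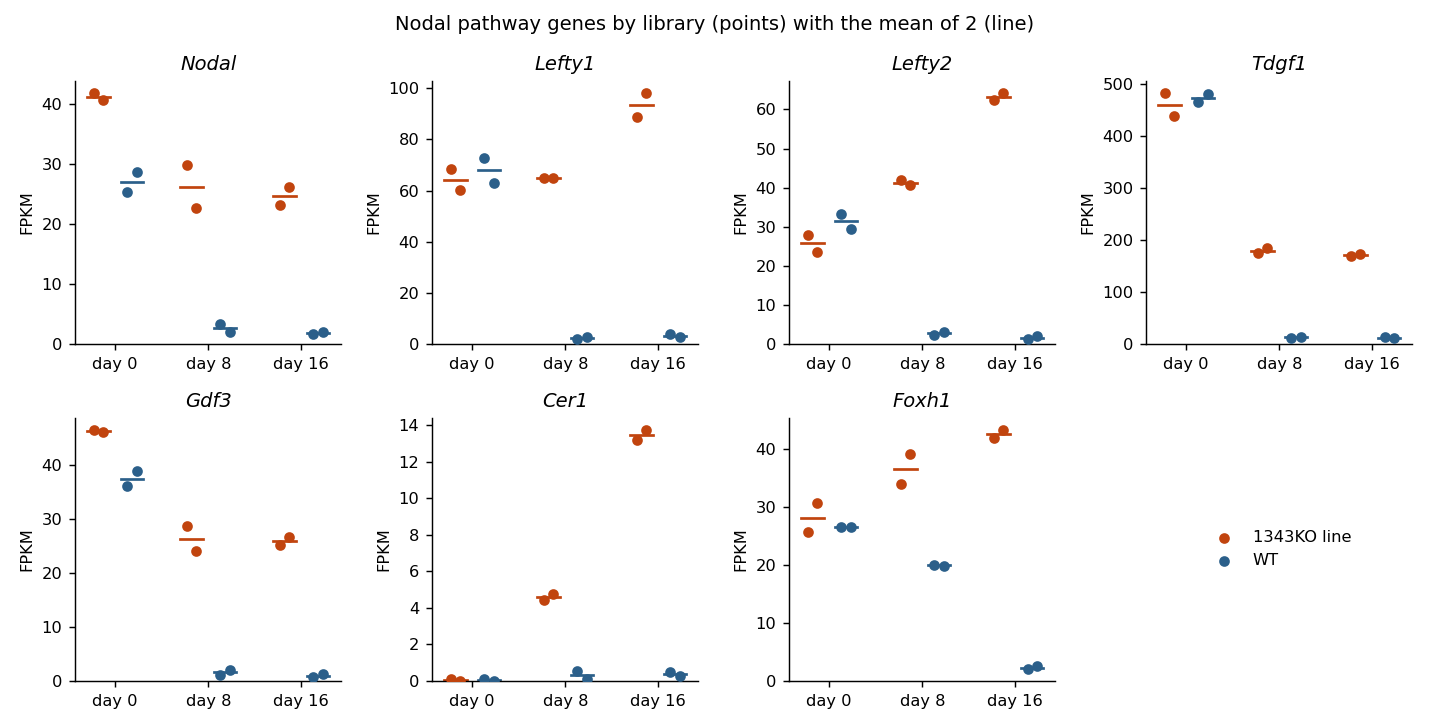
FPKM of each member by library (points; y axis linear from 0) at days 0, 8 and 16, with the 1343KO line left of WT and a line at the mean of 2. At days 8 and 16 every 1343KO library lies above both WT libraries for all 7 genes. The share of all genes separated in this way was not counted. Of all genes tested, 23.3% at day 8 and 28.5% at day 16 passed as higher in limma.

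Nodal (ENSMUSG00000037171), the ligand itself, is a 3-exon gene at chr10:61417972-61425338 of GRCm38, plus strand. Its 1343KO levels were 41.8 and 40.6 FPKM at day 0, 29.8 and 22.7 at day 8, and 23.2 and 26.2 at day 16. WT had 25.4 and 28.7 FPKM at day 0, 3.43 and 2.102 at day 8, and 1.74 and 2.06 at day 16. The lines did not overlap at any day, and the gap was wide only at days 8 and 16. At day 0 the level was 1.52-fold higher in the 1343KO line, and the difference did not pass (log2 difference 0.59 ± 0.19 (SE), adjusted p = 0.135, limma). It was 9.49-fold higher at day 8 (2.87 ± 0.19, adjusted p = 3.81e-06) and 13-fold higher at day 16 (3.15 ± 0.19, adjusted p = 1.14e-06). In WT, Nodal fell to 10.2% of its day 0 mean at day 8 and 7.03% at day 16. The fall in the 1343KO line was to 63.7% at day 8 (adjusted p = 0.0353, limma) and 59.9% at day 16 (adjusted p = 0.02). The day 8 call ended without 1343KO D0 replicate 1 (adjusted p = 0.123) or 2 (0.109) or 1343KO D8 replicate 2 (0.208), with a pseudocount of 0.1 (0.0624) and with no filter (0.0706). The day 16 call ended without 1343KO D0 replicate 1 (0.0817) or 2 (0.0726) or 1343KO D16 replicate 1 (0.106) or 2 (0.0524). The later WT values rest on about 22.3 to 49.5 fragments per library, against 209.7 to 456.6 in the 1343KO libraries of those days.

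Gdf3 (ENSMUSG00000030117), a TGF-beta family ligand of pluripotent cells, lies at chr6:122605403-122610087, minus strand, with 2 exons. The 1343KO line had 46.4 and 46.2 FPKM at day 0, 28.6 and 24.1 at day 8, and 25.2 and 26.7 at day 16. Its WT levels were 36.1 and 38.8 FPKM at day 0, 1.17 and 1.98 at day 8, and 0.700 and 1.28 at day 16. Its course was close to that of Nodal, with a partial loss in the 1343KO line and a near complete one in WT. The day 0 difference did not pass (0.30 ± 0.18 (SE), adjusted p = 0.466, limma), and Gdf3 was 16.7-fold higher at day 8 (3.42 ± 0.18, adjusted p = 1.24e-06) and higher at day 16 (3.77 ± 0.18, adjusted p = 3.59e-07), where no fold is given because the WT mean was under 1 FPKM. Within the 1343KO line it fell to 56.9% of its day 0 mean at day 8 (adjusted p = 0.0134, limma) and 56% at day 16 (0.0106). The day 8 call ended without 1343KO D0 replicate 1 (0.0584) or 2 (0.0596) or 1343KO D8 replicate 2 (0.0876), or with a pseudocount of 0.1 (0.0634). The day 16 call ended without 1343KO D16 replicate 1 (0.0585) or with that pseudocount (0.0533). Within a 1343KO library the ratio of Gdf3 to Nodal FPKM stayed between 0.96 and 1.14 on all days, and in WT it was 1.42 and 1.35 at day 0 and 0.341 to 0.944 later.

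Tdgf1 (ENSMUSG00000032494), the co-receptor that lets Nodal engage its receptors, lies at chr9:110939603-110946158, minus strand, with up to 7 exons in a transcript. It had the highest level of the 7 in every group except WT at day 8. The 1343KO line had 482 and 437 FPKM at day 0, 174 and 184 at day 8, and 170 and 173 at day 16. The WT values were 465 and 480 FPKM at day 0, 12.8 and 13.2 at day 8, and 12.9 and 12.5 at day 16. The lines overlapped at day 0, and every later 1343KO library lay far above both WT libraries. Tdgf1 was 13.8-fold higher in the 1343KO line at day 8 (log2 difference 3.68 ± 0.06 (SE), adjusted p = 8.73e-09, limma) and 13.5-fold higher at day 16 (3.65 ± 0.06, adjusted p = 3.43e-09). Within the 1343KO line it fell to 39% of its day 0 mean at day 8 (adjusted p = 2.31e-06, limma) and 37.3% at day 16 (adjusted p = 1.65e-06). Between days 8 and 16 neither line passed, with log2 differences of -0.06 ± 0.06 in the 1343KO line and -0.03 ± 0.06 in WT.

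Tdgf1-ps1, its processed pseudogene, was listed at 9.99% to 22.2% of the Tdgf1 level in the 1343KO libraries and at 15.1% to 37.8% in those of WT. It was at 63.2 and 77.7 FPKM in the 1343KO line and 75.2 in both WT libraries at day 0. The pseudogene was also higher in the 1343KO line at day 8 (17.4 and 36.6 FPKM, against 3.34 and 3.39 in WT) and day 16 (31.6 and 38.4, against 4.89 and 1.89 in WT). How many of those reads came from Tdgf1 itself was not tested.

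Lefty1 (ENSMUSG00000038793), a secreted antagonist that is itself switched on by Nodal signalling, lies at chr1:180935022-180938400, plus strand, with 4 exons. Its level in the 1343KO line was 68.6 and 60.05 FPKM at day 0, 64.9 and 65.1 at day 8, and 88.6 and 98.0 at day 16. WT had 72.6 and 63.2 FPKM at day 0, 2.20 and 2.63 at day 8, and 4.09 and 2.70 at day 16. At day 0 the lines overlapped (adjusted p = 0.882, limma), and at day 8 the 1343KO libraries were still within the day 0 range while WT was not. The difference was 26.9-fold at day 8 (4.27 ± 0.15 (SE), adjusted p = 1.58e-07, limma) and 27.5-fold at day 16 (4.44 ± 0.15, adjusted p = 5.49e-08). From day 0 to day 8 the change in the 1343KO line did not pass (0.02 ± 0.15, adjusted p = 0.962), and its sign turned with median-of-ratios and with TPM scaling (-0.07 in both). At day 16 Lefty1 was at 145% of the day 0 mean in that line (adjusted p = 0.0312, limma). This last call ended without 1343KO D0 replicate 1 (0.0537) or 2 (0.159) or 1343KO D16 replicate 1 (0.0694) or 2 (0.15), and with a pseudocount of 0.1 (0.0564), no filter (0.063), median-of-ratios scaling (0.0971) or TPM scaling (0.0578).

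Lefty2 (ENSMUSG00000066652), the neighbouring antagonist gene at chr1:180893108-180899103 on the same strand, also has 4 exons. The 1343KO line had 28.0 and 23.6 FPKM at day 0, 41.9 and 40.6 at day 8, and 62.3 and 64.1 at day 16. WT had 33.3 and 29.6 FPKM at day 0, 2.42 and 3.05 at day 8, and 1.24 and 2.14 at day 16. The 1343KO libraries lay just below WT at day 0, a difference that did not pass (-0.28 ± 0.17 (SE), adjusted p = 0.462, limma), and above every WT library later. Lefty2 was 15.1-fold higher in the 1343KO line at day 8 (3.5 ± 0.17, adjusted p = 6.8e-07) and 37.4-fold at day 16 (4.60 ± 0.17, adjusted p = 7.41e-08). It rose within that line to 160% of its day 0 mean at day 8 (adjusted p = 0.0204, limma) and 245% at day 16 (adjusted p = 0.000679). The day 8 rise ended without 1343KO D0 replicate 2 (0.119) or 1343KO D8 replicate 1 (0.0848) or 2 (0.0756), or with a pseudocount of 0.1 (0.0556) or TPM scaling (0.069).

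The balance of the 2 Lefty genes, and of both to Nodal, also moved with time in the 1343KO line. Lefty1 was 2.45 and 2.55 times Lefty2 there at day 0, 1.55 and 1.60 times at day 8, and 1.42 and 1.53 times at day 16. In WT the ratio was 2.18 and 2.14 at day 0, 0.909 and 0.862 at day 8, and 3.31 and 1.26 at day 16, where both genes were low. The sum of both Lefty levels was 2.31 and 2.06 times the Nodal level in the 1343KO line at day 0, 3.58 and 4.66 times at day 8, and 6.51 and 6.18 times at day 16. WT had ratios of 4.17 and 3.23, 1.35 and 2.71, and 3.06 and 2.35 on those days. At days 8 and 16 the 1343KO ratios to Nodal were above those of WT, and at day 0 they were below. All these ratios are descriptions of 2 libraries a group and were not tested.

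**Figure D2:**
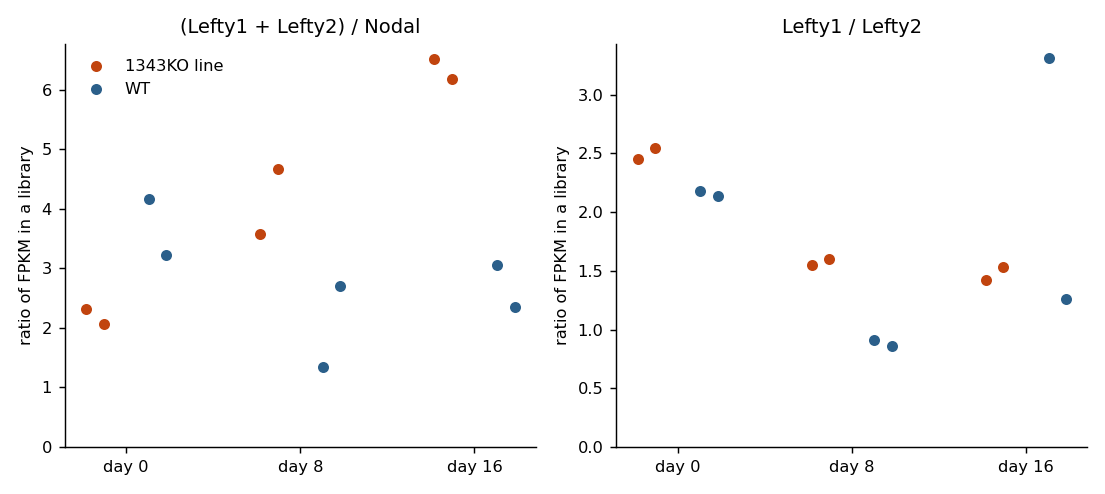
Ratio of FPKM within each library (points) for the sum of Lefty1 and Lefty2 over Nodal (left) and for Lefty1 over Lefty2 (right), at days 0, 8 and 16, with the 1343KO line left of WT. The Lefty sum over Nodal in the 1343KO line lies at 2.31 and 2.06 at day 0 and at 6.51 and 6.18 at day 16.

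Cer1 (ENSMUSG00000038192), an antagonist of Nodal made by the anterior visceral endoderm and the early endoderm of the embryo, lies at chr4:82881751-82885148, minus strand, with 2 exons. It was nearly absent from ES cells, at 0.0944 and 0 FPKM in the 1343KO line and 0.0879 and 0 in WT. Later the 1343KO line had 4.42 and 4.75 FPKM at day 8 and 13.2 and 13.7 at day 16. WT stayed at 0.526 and 0.105 FPKM at day 8 and at 0.495 and 0.286 at day 16. These levels correspond to about 35.7 to 132.5 fragments in the later 1343KO libraries and 1.0 to 6.2 in the later WT libraries. Only its 4 later 1343KO libraries reached 1 FPKM and brought it into the test, so the direction against WT was fixed in advance. Cer1 was higher in the 1343KO line at day 8 (log2 difference 2.11 ± 0.21 (SE), adjusted p = 4.56e-05, limma) and day 16 (3.38 ± 0.21, adjusted p = 1.3e-06). It was the only member that passed between days 8 and 16 in the 1343KO line (1.37 ± 0.21, adjusted p = 0.0206, where 0.804% of all genes passed, 0.602% higher and 0.203% lower). That call ended without 1343KO D8 replicate 1 (0.0969) or 2 (0.129) or 1343KO D16 replicate 1 (0.113) or 2 (0.122), with a pseudocount of 0.1 (0.391), with TPM scaling (0.0914) and on the 4 libraries of those days alone (0.0759). In WT the changes from day 0 did not pass at day 8 (adjusted p = 0.231) or day 16 (0.113; 0.0322 with a pseudocount of 0.1).

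Foxh1 (ENSMUSG00000033837), the DNA-binding partner of the Smad proteins, lies at chr15:76668225-76669948, minus strand, with 3 exons. The 1343KO line had 25.7 and 30.8 FPKM at day 0, 34.0 and 39.3 at day 8, and 42.1 and 43.4 at day 16. WT had 26.7 and 26.5 FPKM at day 0, 20.03 and 19.9 at day 8, and 2.02 and 2.58 at day 16. WT thus kept 75% of its day 0 mean at day 8, where Pou5f1, a core pluripotency factor, was at 4.68% and 4.76% of its own, and only 8.66% at day 16. The line difference was 1.84-fold at day 8 (0.84 ± 0.12 (SE), adjusted p = 0.000519, limma) and 18.6-fold at day 16 (3.73 ± 0.12, adjusted p = 4.82e-08). Between days 8 and 16 Foxh1 fell in WT (log2 difference -2.67 ± 0.12 (SE), adjusted p = 1.5e-06, limma, where 13.5% of all genes were lower), and no other member passed there. The WT fall by day 8 (-0.40 ± 0.12, adjusted p = 0.0231) ended with TPM scaling (0.102) and without WT D0 replicate 1 (0.0801) or 2 (0.0773) or WT D8 replicate 1 (0.0769) or 2 (0.0827). Foxh1 in the 1343KO line was at 130% of its day 0 mean at day 8, which did not pass (adjusted p = 0.0608) but did under 5 of the alternatives (0.0416 to 0.0496). It had risen to 151% at day 16 (0.59 ± 0.12, adjusted p = 0.0075), a call that ended without 1343KO D0 replicate 1 (0.052).

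**Figure D3:**
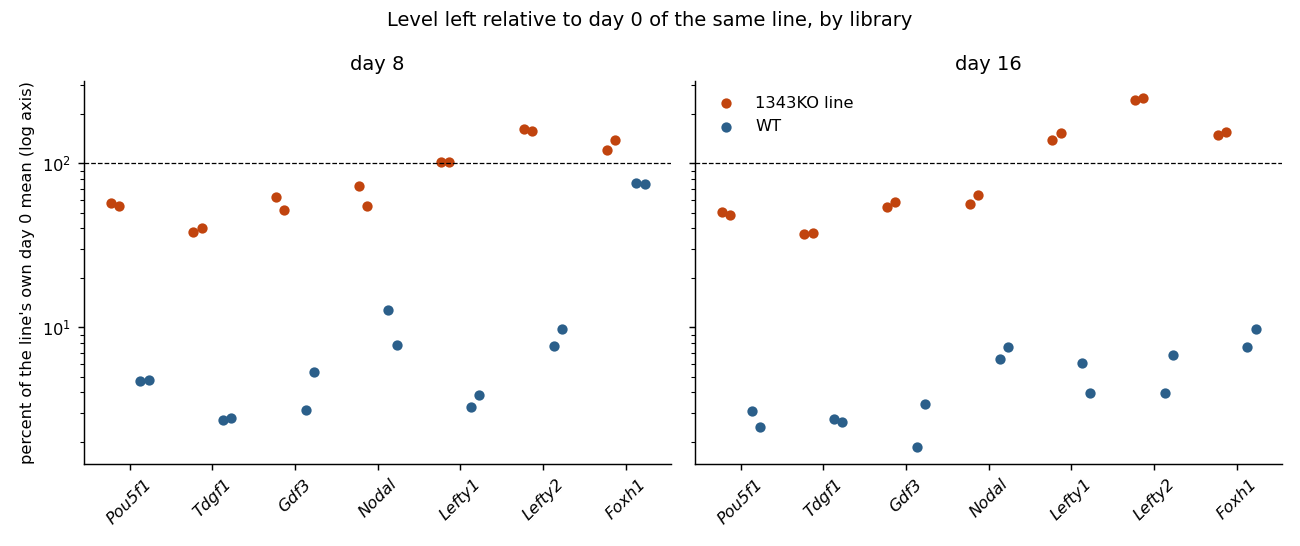
Level in each library as a percent of the same line's day 0 mean (log axis) at day 8 (left) and day 16 (right), with the 1343KO line left of WT. Pou5f1 is included for comparison and Cer1 is left out because it was near 0 at day 0; Foxh1 in WT stands at 75.3% and 74.8% at day 8, while the other WT values of day 8 lie between 2.72% and 12.7%.

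Counted within each line, 6 of 7 members fell in WT from day 0 to day 8 and 6 of 7 from day 0 to day 16, where 24.5% and 28.5% of all genes tested fell, 26.8% and 32.7% rose, and 51.3% and 61.2% passed in all. The median log2 change of the members was -3.12 and -3.61 for those steps, against 0.00 and 0.02 for all genes. Between days 8 and 16, 1 of 7 fell in WT, where 27.6% of all genes passed, 14.1% higher and 13.5% lower. Within the 1343KO line 2 members rose, 3 fell and 2 did not pass from day 0 to day 8, where 23.5% of all genes passed, 15.0% higher and 8.51% lower. From day 0 to day 16, 4 rose and 3 fell, against 18.2% and 8.60% of all genes and 26.8% in all. The share of higher genes among all that passed was 63.8% at day 8, or 52.4% with median-of-ratios scaling, and 67.9% at day 16, or 51.6% with that scaling. The ligand and co-receptor genes Nodal, Gdf3 and Tdgf1 were those that fell, and Lefty1, Lefty2, Cer1 and Foxh1 those that were higher at day 16. Cer1 was tested only through its later 1343KO libraries, so the direction of its change there was fixed in advance. The 4 calls of Nodal, Gdf3, Lefty1 and Foxh1 rest on single libraries as given above, and without 1343KO D0 replicate 1 or 1343KO D16 replicate 1 the count of 7 was 4. The count of 5 at day 8 was 2 without 1343KO D8 replicate 2, 3 without either 1343KO D0 library and 2 with a pseudocount of 0.1.

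The change over time was also tested between the lines. The difference, 1343KO minus WT, was positive and passed for 7 of 7 members in both steps from day 0. Cer1 entered the test only through its 4 later 1343KO libraries, so its direction in that count was fixed in advance. For the step to day 8, 28.3% of all genes passed, 15.6% higher and 12.7% lower. For the step to day 16, 40.0% passed, 21.7% higher and 18.2% lower.

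The order of levels also differed between the lines. At day 0 both lines had Tdgf1 on top, then Lefty1 and Gdf3, with Cer1 last. Nodal came before Lefty2 in the 1343KO line and after it in WT, where Nodal and Foxh1 overlapped; in the 1343KO line Foxh1 and Lefty2 overlapped. The order in the 1343KO line at days 8 and 16 was Tdgf1, Lefty1, Lefty2, Foxh1, then Gdf3 and Nodal, which overlapped, then Cer1. In WT at day 8 Foxh1 was on top, Tdgf1 next, and Nodal, Lefty2 and Lefty1 overlapped. In WT at day 16 Tdgf1 led, Lefty1 was next, and Foxh1, Nodal, Lefty2 and Gdf3 each overlapped with a neighbour in the order.

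**Figure D4:**
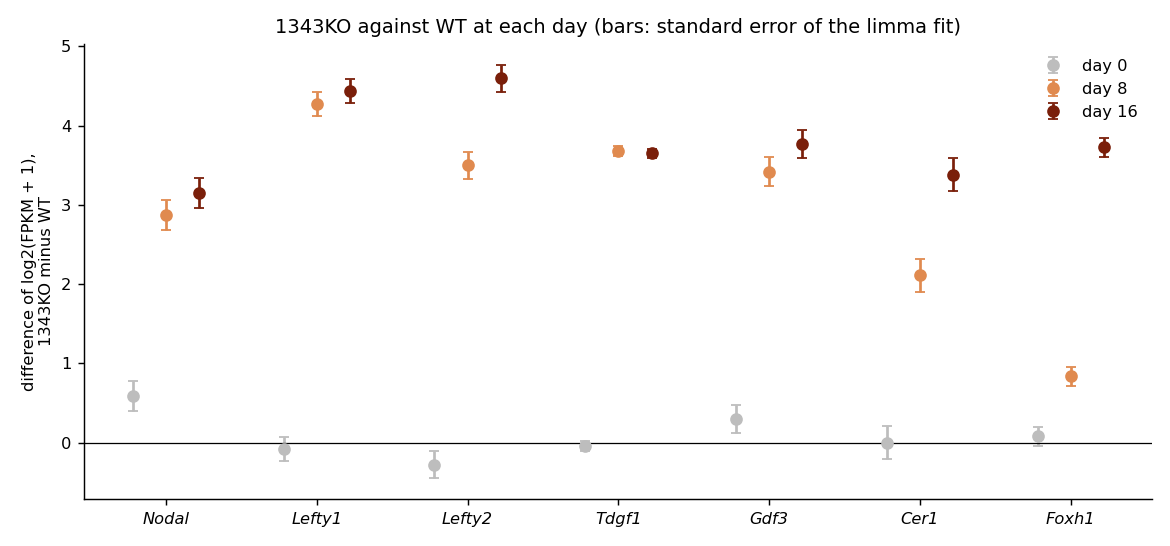
Difference of log2(FPKM + 1), 1343KO minus WT, for each member at days 0, 8 and 16 (points), with the standard error of the limma fit as bars. Day 0 values lie between -0.28 and 0.59, and Foxh1 moves most between day 8 (0.84) and day 16 (3.73).

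Of 37 other genes of the pathway, 34 passed the filter on low values, and Inhba, Acvr1c and Mixl1 did not. At day 0, 4 were lower in the 1343KO line and 0 higher. At day 8, 11 were higher, 10 lower and 13 did not pass, with a median log2 difference of 0.07 against 0.06 for all genes. At day 16, 14 were higher, 8 lower and 12 did not pass, with a median of 0.14 against 0.07. The shares of all genes tested were 1.59% higher and 2.12% lower at day 0, 23.3% and 19.6% at day 8, and 28.5% and 24.1% at day 16. Among the 4 lower at day 0 were the endoderm factors Foxa2 (0.597 ± 0.083 FPKM in the 1343KO line against 2.83 ± 0.676 in WT, SD, n = 2) and Sox17 and the convertase Furin. The 4 calls rest on single libraries: 2 of 34 genes passed without 1343KO D0 replicate 1 or without replicate 2, 1 without WT D0 replicate 1 and 0 without WT D0 replicate 2.

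Among other ligands and their processing, the convertase genes differed in opposite directions at day 8. Furin, a protease that can cleave the Nodal precursor, was at 13.5 ± 0.419 FPKM in the 1343KO line against 32.2 ± 0.798 in WT at day 8 (SD, n = 2; log2 difference -1.20 ± 0.11 (SE), adjusted p = 3.04e-05, limma) and at 14.8 ± 0.56 in the 1343KO line against 29.9 ± 1.37 in WT at day 16. Pcsk6, a related convertase, was at 13 ± 2.24 in the 1343KO line against 2.04 ± 0.163 in WT at day 8 (2.20 ± 0.20), and at 7.84 ± 0.234 in the 1343KO line against 5.76 ± 2.05 in WT at day 16 (adjusted p = 0.107). Inhbb, an activin subunit, was at 25.1 ± 0.972 FPKM in the 1343KO line at day 0, 0.801 ± 0.199 at day 8 and 0.794 ± 0.138 at day 16. WT had 18.9 ± 0.381 at day 0, 0.341 ± 0.0516 at day 8 and 2.29 ± 0.175 at day 16. Inhbb was lower in the 1343KO line at day 16 (-0.88 ± 0.16), and its difference at day 8, of the opposite sign, did not pass (0.42 ± 0.16, adjusted p = 0.0595, limma). Gdf1 is on chromosome 8, shares its locus with another gene in mouse, and was listed near 0 in several libraries, so its level is uncertain.

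Receptor and Smad genes differed in both directions. In the receptor list 0 were higher and 3 lower at day 8, and 2 were higher and 1 lower at day 16, of 4 tested. The shares of all genes were 23.3% higher and 19.6% lower at day 8, and 28.5% and 24.1% at day 16. Acvr2a, a type II receptor, was lower at both days (-0.91 ± 0.18 and -0.83 ± 0.18). Acvr2b, the other type II receptor, was higher at day 16 (14.3 ± 1.31 FPKM in the 1343KO line against 6.7 ± 0.917 in WT; 0.99 ± 0.18). Cfc1, a co-receptor related to Tdgf1, was lower at day 8 (2.45 ± 0.112 FPKM in the 1343KO line against 23 ± 3.26 in WT; -2.79 ± 0.34) and higher at day 16 (6.53 ± 2.84 in the 1343KO line against 0.383 ± 0.0138 in WT; 2.39 ± 0.34). Acvr1c was listed at 0 in 11 of 12 libraries. Smad3 was lower in the 1343KO line at both days (-0.72 ± 0.13 and -0.63 ± 0.13), and Smad2 and Smad4 did not pass at any day. Trim33, a Smad partner, was at 38.3 ± 1.84 FPKM in the 1343KO line against 20.7 ± 1.79 in WT at day 16 (0.86 ± 0.09).

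Among 12 other antagonists and negative regulators, 6 were higher and 1 lower at day 8, and 5 were higher and 2 lower at day 16. All genes had shares of 23.3% higher and 19.6% lower at day 8, and 28.5% and 24.1% at day 16. The corepressor genes Tgif1 (1.22 ± 0.10 and 1.51 ± 0.10 at days 8 and 16), Tgif2 (1.06 ± 0.14 and 1.32 ± 0.14) and Skil (1.28 ± 0.14 and 1.35 ± 0.14) were higher at both days. Pmepa1, a feedback inhibitor that binds Smads, was higher at day 8 (4.71 ± 0.353 FPKM in the 1343KO line against 1.18 ± 0.0649 in WT; 1.39 ± 0.14) and did not pass at day 16 (-0.11 ± 0.14). Dand5, a Nodal antagonist related to Cer1 and on chromosome 8, was at 0.728 to 1.14 FPKM on average in the later groups and did not pass at any day.

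Of 9 tested mesendoderm targets, 3 were higher and 3 lower at day 8, and 5 were higher and 2 lower at day 16. The day 8 calls of Eomes and Gsc did not hold under every alternative, as given with the primitive streak list below. Shares of all genes were 23.3% higher and 19.6% lower at day 8, and 28.5% and 24.1% at day 16. T, the streak factor brachyury, was at 4.67 and 5.94 FPKM in the 1343KO line against 1.00 and 1.35 in WT at day 8, and at 7.31 and 7.08 in the 1343KO line against 0.0813 and 0.235 in WT at day 16. Eomes, another streak factor, was at 9.28 and 8.70 FPKM in the 1343KO line against 0.883 and 0.827 in WT at day 16 (2.43 ± 0.23 (SE)). Lhx1, a factor of the anterior streak, and Fgf8, a streak growth factor, were also higher at day 16 (1.64 ± 0.24 and 2.09 ± 0.33), as was Gsc, an organizer factor (1.05 ± 0.19). Foxa2 was among the lower genes at day 16 (-1.0 ± 0.22).

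Markers of cell states also differed between the lines. All 5 ES cell markers and all 4 formative epiblast markers were higher in the 1343KO line at days 8 and 16. Of all genes, 23.3% and 28.5% were higher at those days. Already at day 0, 1 of the 5 ES cell markers and 2 of the 4 formative epiblast markers were higher in that line, against 1.59% of all genes. The ES cell list summed to 1000 and 1020 FPKM in 1343KO cells at day 8, against 75.7 and 79.5 in WT, and to 877 and 892 in 1343KO against 44.3 and 47.2 in WT at day 16. The 4 formative epiblast markers summed to 102 and 104 FPKM in 1343KO against 69.8 and 72.1 in WT at day 0, to 184 and 185 in 1343KO against 32.4 and 34.0 in WT at day 8, and to 245 and 259 in 1343KO against 13.1 and 16.2 in WT at day 16. Most of the day 0 sums was Dnmt3b (mean 85.6 FPKM in 1343KO and 60.7 in WT). The markers did not fall together in WT. From day 0 to day 8 there, 2 rose and 2 fell, against 26.8% and 24.5% of all genes. Mean Otx2 went from 3.81 to 10.8 FPKM and Fgf5 from 0.566 to 1.69. The primitive streak list, whose 6 genes are also in the target list, summed to 3.28 and 3.75 FPKM in 1343KO against 4.11 and 5.64 in WT at day 0, to 19.0 and 22 in 1343KO against 12.8 and 16.6 in WT at day 8, and to 30.8 and 34.4 in 1343KO against 5.04 in both WT libraries at day 16. Of its 5 tested genes 3 were higher and 1 lower at day 8, and 4 were higher and 0 lower at day 16. The lower gene at day 8 was Wnt3, a streak ligand (0.665 ± 0.157 FPKM in 1343KO against 3.4 ± 0.279 in WT; -1.40 ± 0.19 (SE), adjusted p = 0.000303, limma). Fgf8, the largest term of the day 8 sums, did not pass then (6.78 ± 1.13 in 1343KO against 6.27 ± 1.65 in WT; adjusted p = 0.824, limma). No marker of these lists was at 0 in both libraries of a group. The part of these cell states in the members' differences was not tested. Between the lines, the 11 markers of extraembryonic endoderm, a lineage that can also make Lefty1 and Cer1, went the other way. They summed to 70.6 and 83.0 FPKM in 1343KO against 178 and 188 in WT at day 0, to 135 and 153 in 1343KO against 1480 and 1520 in WT at day 8, and to 104 and 115 in 1343KO against 10200 in both WT libraries at day 16. Most of the last WT sum was Afp (8190 ± 75.8 FPKM in WT against 36.3 ± 9.63 in 1343KO, SD, n = 2). Gata4, for example, differed far less at day 16 (12.7 ± 1.44 in 1343KO against 27.6 ± 1.25 in WT). Of the 11, 7 were lower in the 1343KO line at day 0 and 10 at each later day, against 2.12%, 19.6% and 24.1% of all genes. Within the 1343KO line, 8 of the 11 rose and 0 fell from day 0 to day 8, against 15.0% and 8.51% of all genes. From day 0 to day 16, 7 rose and 1 fell there, against 18.2% and 8.60%. Whether this lineage made the Lefty1 or Cer1 RNA was not tested.

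Among 8914 named genes averaging 5 FPKM or more, those most like each member over the 12 libraries were found by Pearson's r of log2(FPKM + 1). Libraries of a group and day share most of their state, so high values are common and carry no p. Nodal was closest to Phc1 (r = 0.992), a Polycomb gene, and Tdgf1 to L1td1 (0.998), an RNA-binding protein gene. Gdf3 was closest to Gabpb2 and Rps4l (both 0.997), followed by Fgf4 (0.997), a growth factor of ES cells. Lefty1 was closest to Pdzd4 (0.994), followed by the nuclear receptor gene Nr5a2 (0.990), and Lefty2 to Nptx2 (0.993). Cer1 was closest to Fgf5 (0.967), a formative epiblast growth factor, which was at 24.4 FPKM at day 8 and 35.5 at day 16 in the 1343KO line and at 1.69 and 1.29 in WT. Foxh1 was closest to Homer1 (0.984).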

How the data were processed

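Poly(A)-selected RNA was made into libraries with a NEBNext Ultra II kit for Illumina sequencing, per the labels. The authors deposited 1 FPKM value per gene and library. Cufflinks 2.1.1 and GRCm38 (mm10) are named in the submitters' processing notes. Alignment, gene models and filtering: not given in the sources used. Against GENCODE M21, 99.9% of the gene IDs and, counted from 1, 98.6% of the coordinates matched. A 0 can be a failed estimate: of 6620 genes whose median is 10 FPKM or more, 17 are listed at 0 in some library.

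Genes reaching 1 FPKM in 2 or more libraries entered the test. In R 4.3.3, limma 3.58.1 fitted log2(FPKM + 1) on the 12 libraries, with 1 mean for each group and a variance trend. The 11 contrasts set the lines against each other at each day, the days against each other within a line, and the difference between the lines' changes from day 0. Two-sided p-values were adjusted by Benjamini-Hochberg within a contrast. With 2 against 2 libraries the calls rest on a spread pooled over genes and groups. The fit was checked on simulated data. Depth was estimated from values worth 1 to 3 fragments, in genes with transcripts of 1500 nt or more and an assumed 200 nt fragment. Of those values 85.0% to 88.7% were within 5% of a whole number, and no count test was run. Sequences are from RefSeq and GENCODE, aligned with Biopython 1.88. Tables and plots used Python 3.11.15 (pandas 2.3.3, numpy 2.4.6; plots: matplotlib 3.10.9).

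The members and lists were chosen with earlier results of these data known. All 7 members are named whatever their value; of the other lists, the genes that passed with the smallest p and those at 0, with some that did not pass given for their role. The alternatives tried were another pseudocount (0.1), no filter or a stricter one (5 FPKM on average), TPM or median-of-ratios scaling, a block for the replicate number, the libraries of a contrast alone, and each library left out in turn. The reads and other knockouts were not analysed here, and some items are not reported here.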

Additional observations from a re-analysis of the deposited data

Results flagged for a closer look

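The change over time differed between the lines for all 7 members, by the test of that difference itself in limma (change in the 1343KO line minus change in WT, log2 scale ± SE). It was higher in the 1343KO line for 15.6% of all genes tested from day 0 to day 8 and for 21.7% from day 0 to day 16. Of the genes that passed, 55% and 54.4% were higher. With median-of-ratios scaling these shares were 49.3% and 46.4%, and with TPM scaling 40.4% and 47.6%. Both tests use the same day 0 libraries. From day 0 to day 8 the difference was 2.27 ± 0.26 (adjusted p = 0.000331) for Nodal, 3.12 ± 0.26 (adjusted p = 5.23e-05) for Gdf3 and 3.73 ± 0.09 (adjusted p = 1.86e-07) for Tdgf1. Among the antagonists it was 4.35 ± 0.22 (adjusted p = 3.67e-06) for Lefty1, 3.78 ± 0.24 (adjusted p = 1.27e-05) for Lefty2 and 2.1 ± 0.29 (adjusted p = 0.000862) for Cer1. Because Cer1 entered the test only through its later 1343KO libraries, its direction was fixed in advance in both steps. Foxh1 had the smallest value, 0.76 ± 0.17 (adjusted p = 0.0107), a call that ended with TPM scaling (0.0581). From day 0 to day 16 it was 2.55 ± 0.26 (adjusted p = 8.28e-05) for Nodal, 3.47 ± 0.26 (adjusted p = 1.25e-05) for Gdf3 and 3.69 ± 0.09 (adjusted p = 1.01e-07) for Tdgf1. For Lefty1 the value was 4.51 ± 0.22 (adjusted p = 1.26e-06), for Lefty2 4.88 ± 0.24 (adjusted p = 1.35e-06), for Cer1 3.38 ± 0.29 (adjusted p = 2.8e-05) and for Foxh1 3.66 ± 0.17 (adjusted p = 1.26e-06). No explanation of these differences was tested.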

How the results depend on the processing

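Between the lines at days 8 and 16, the 7 members passed under all alternatives that tested them, each library left out in turn included (7 in every case). Cer1 could not be tested at a mean of at least 5 FPKM, and it passed the main filter only through its later 1343KO libraries. Of 1448 member results under an alternative, 1379 kept direction and side of the threshold, 42 lost the call, 11 gained it and 16 changed sign, none of them passing either way. The sign changes were at day 0 for Lefty1 (-0.17 to 0.02 with 1 library left out), Tdgf1 (-0.11 to 0.03), Cer1 (-0.06 to 0.07) and Foxh1 (-0.05 to 0.20). For Lefty1 from day 0 to 8 in the 1343KO line the change was -0.07 under either scaling and -0.08 to 0.11 with 1 library left out. Between days 8 and 16, Cer1 in WT changed by -0.14 to 0.33 with 1 library left out. For that step in the 1343KO line Nodal changed by -0.27 to 0.12 and Gdf3 by -0.14 to 0.10 in the same way, and Gdf3 by 0.02 with TPM scaling.

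Counts that moved by over 1.5 times were these. At day 0 between the lines, 604 genes in all passed, 88 on the 4 libraries alone and 197 to 524 with 1 library left out; of the other pathway genes 4 passed, 0 on those libraries alone and 0 to 3 with 1 left out. In WT between days 8 and 16, 1 member passed, and 2 with a pseudocount of 0.1, a mean of at least 5 FPKM or TPM scaling, by gaining Lefty2; 1 to 3 passed with 1 library left out, and 2747 to 4489 of 4495 genes in all. In the 1343KO line from day 0 to 8, 5 members passed, 2 with a pseudocount of 0.1 and 2 to 6 with 1 library left out; all genes numbered 3828, 2551 on the libraries alone and 2469 to 3663 with 1 left out. From day 0 to 16 there, 7 members passed, 4 to 7 with 1 library left out, and 4368 genes, 2879 to 4294. Between days 8 and 16 there, 1 member passed and 0 with a pseudocount of 0.1, a mean of at least 5 FPKM, TPM scaling or the libraries alone, and 0 to 1 with 1 left out. In that step 0 of 34 other pathway genes passed in limma (9 at an unadjusted p under 0.05), 1 with no filter or TPM scaling, and 131 genes in all, 20 on the libraries alone and 23 to 133 with 1 left out. The cause of these shifts was not tested.

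Replicate numbers did not pair the libraries: differences between replicates 1 and 2 correlated between groups at -0.08 to 0.11, with 1 of 15 pairs over 0.1 and 9 above 0. With a replicate block the count of members was unchanged in all but 1 contrast, the 1343KO line from day 0 to day 8 (6 in place of 5). Scaling moved the median of all genes between the lines at day 8 to -0.07 with TPM, against 0.06, and that of the 1343KO line at day 16 against day 0 to 0.00 with median-of-ratios, against 0.11.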
